A study of Homo sapiens with 6 samples.

Results

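Transcripts of glycolysis and of the hypoxia response were measured in HES3 cells, a line of human embryonic stem cells, after 3 days of differentiation with Activin A and BMP4 together or with Activin A alone. The gene set holds 38 genes: 17 glycolytic enzymes, 4 glucose and lactate transporters, 5 regulators of glycolytic flux and 12 genes of the hypoxia-inducible factor (HIF) pathway or its targets. They were found on the array by the gene symbol of the platform annotation, which gave 50 probes of 35 genes, among 24526 probes and 16922 genes in all. SLC16A1, SLC16A3 and CA9 had no matching probe and were not analysed here. Of the 35 genes, 31 had at least 1 of 38 probes detected on 3 or more of the 6 arrays (detection p under 0.01) and could be tested.

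Glycolysis splits glucose into pyruvate in the cytosol, and its enzymes often occur as families of related genes used to different degrees in different tissues. Pluripotent stem cells are known for a high glycolytic rate. HIF1A encodes the oxygen-sensitive subunit of a transcription factor that is hydroxylated and degraded when oxygen is present. When oxygen is low the factor accumulates and activates many glycolytic genes along with genes for angiogenesis, mitophagy and collagen processing.

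The cells had been grown on irradiated human feeder cells, were freed of feeders with a strainer (typically a 90% depletion, per the labels), and were plated on fibronectin for 2 days. The treated cultures received 50 ng/ml Activin A, a ligand of the Nodal receptors, with 50 ng/ml BMP4 (bone morphogenetic protein 4), and their counterparts received Activin A at 50 ng/ml. Each treatment had 3 arrays, which the design text calls biological replicates, all from this 1 line. Because the labels' treatment text gives both factors for all samples, samples were assigned by their titles and source names. Each chip held arrays of 1 treatment (Activin A + BMP4 on 2 chips, Activin A on 1), so chip and treatment cannot be told apart. Activin A + BMP4 replicate 3 was the only array of the series on its chip.

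Between 9348 and 10460 probes were detected per array, and normalized log2 values correlated at 0.985 or more within treatments and at 0.926 to 0.945 between them. The labels call the cells embryonic stem cells. Of 8 pluripotency markers listed, 7 had a probe, and all 7 were detected on enough arrays to be tested. Of these, 5 were lower and 1 higher with BMP4. Among 9 tested markers of endoderm and mesendoderm, 8 were higher, SOX17 by 7.23-fold. Of 13 tested fibroblast markers, 12 were lower with BMP4 and 0 higher. Their summed normalized level was 18345.5 to 19225.5 on the Activin A + BMP4 arrays and 56209.8 to 70782.0 on the Activin A arrays, while POSTN and FBN1 were not detected on any array. The part of fibroblast RNA in the differences below was not tested, and in bulk RNA fewer cells of a type and less RNA per cell cannot be told apart.

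The set differed between the treatments in both directions. Differences are given as log2 Activin A + BMP4 minus Activin A with the standard error of the limma fit, and a gene is called higher or lower where the Benjamini-Hochberg adjusted p over all 10116 tested probes is under 0.05. Of the 31 tested genes, 6 were higher (17.6% of all 8186 tested genes were) and 11 lower (18.1% of all tested genes were), and 14 did not pass. In either direction 17 of 31 passed, or 54.8%, against 35.8% of all tested genes. By probe, 22 of 38 passed, or 57.9%, against 35.4% of all tested probes. Among genes detected on all 6 arrays, 18 of 28 passed (64.3%), against 37.1% of all such genes. PDK1 was not in this count, and PFKL and NDRG1 entered it. Tested genes passed a filter on detection, so these counts do not speak for the 7 that were not tested.

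The changes were moderate in size. By the probe that stands for the gene, the largest fall was that of P4HA2, by 1.79. The largest rises by such probes were those of P4HA1 and PGM1, each 0.89. Dimmer probes of PKM rose more, by 1.04 and 1.02. Only P4HA2 and ADM were lower at least 2-fold (5.4% of all tested genes were), and 0 members were higher at least 2-fold (4.01% of all tested genes were) by the probe that stands for the gene. The median absolute difference was 0.48, against 0.27 over all tested genes, and the signed medians were -0.09 and 0.002. For 23 of 31 genes, or 74.2%, all arrays of one treatment lay above all of the other, against 50.2% of all tested genes.

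**Figure D1:**
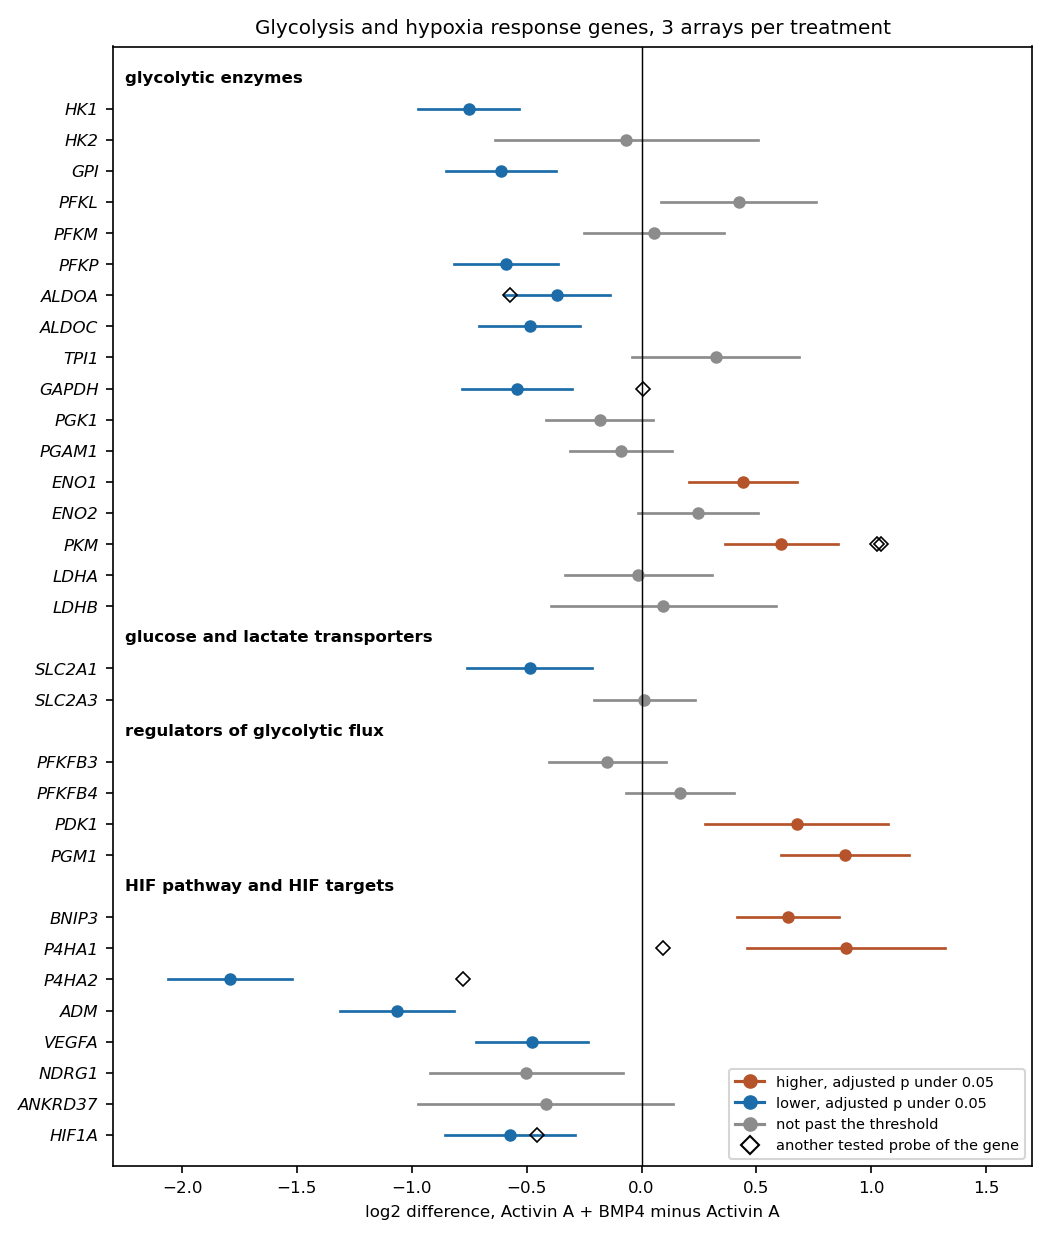
The log2 difference, Activin A + BMP4 minus Activin A, is plotted on the horizontal axis for the 31 tested genes, grouped by role, with points for the probe that stands for the gene, bars for 95% confidence intervals and open diamonds for other tested probes (n = 3 arrays per treatment). By the probe that stands for the gene, glycolytic enzymes lie on both sides of 0 between -0.75 and 0.61. By these probes P4HA2 at -1.79 and P4HA1 at 0.89 mark the ends of the set. Open diamonds of PKM lie further up, at 1.04 and 1.02.

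The upper part of glycolysis, from glucose capture to the split into triose phosphates, held more falls than rises. HK1, the hexokinase that most tissues use to trap glucose as glucose phosphate, had normalized log2 values of 12.10, 12.00 and 12.06 on the Activin A + BMP4 arrays, against 12.76, 12.86 and 12.81 on the Activin A arrays. The treatments lay well apart, and HK1 was 1.69-fold lower with BMP4 (log2 difference -0.75 ± 0.10, limma adjusted p = 4.97e-04). This value comes from 1 of 4 HK1 probes. Of the other 3, 1 was detected on 0 Activin A + BMP4 arrays and 2 Activin A arrays, and the others on none. HK2, a hexokinase known as a HIF target, was near background, detected on 1 Activin A + BMP4 and 2 Activin A arrays, and its arrays overlapped (log2 difference -0.07 ± 0.25, limma adjusted p = 0.861).

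GPI, the isomerase that turns glucose phosphate into fructose phosphate, gave 8.63, 8.38 and 8.53 with Activin A + BMP4 and 9.15, 9.09 and 9.14 with Activin A. All 3 BMP4-treated arrays were below all 3 others, and GPI was 1.53-fold lower (-0.61 ± 0.10, limma adjusted p = 0.00248). Phosphofructokinase, which commits sugar to glycolysis, is built from subunits encoded by PFKP (platelet type), PFKL (liver type) and PFKM (muscle type). PFKP gave 9.55, 9.53 and 9.64 with Activin A + BMP4 and 10.11, 10.25 and 10.14 with Activin A, and was 1.50-fold lower (-0.59 ± 0.10, limma adjusted p = 0.00222). PFKL gave 8.47, 8.92 and 8.45 with Activin A + BMP4 and 8.07, 8.30 and 8.20 with Activin A. These arrays did not overlap either, with the BMP4-treated ones above, but the difference of 0.42 ± 0.15 missed the threshold (limma adjusted p = 0.0549). It passed with normexp background correction (adjusted p = 0.0357) and among probes detected on all 6 arrays (0.0406). PFKM differed by 0.05 ± 0.13, with overlapping arrays.

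The aldolases cleave fructose bisphosphate. ALDOA, the muscle and general form, gave 11.74, 11.74 and 11.60 with Activin A + BMP4 and 12.05, 12.14 and 12.00 with Activin A by its brighter probe, a fall of 0.37 on the log2 scale (SE 0.10, limma adjusted p = 0.0224). Its other tested probe lay lower with BMP4 as well (-0.57 ± 0.13, limma adjusted p = 0.0104). The call of the brighter probe was lost without Activin A + BMP4 replicate 3 (adjusted p = 0.0575), without Activin A replicate 1 (0.0562) and without Activin A replicate 2 (0.0728), while that of the other probe held in each case. The brain form ALDOC gave 9.44, 9.37 and 9.32 with Activin A + BMP4 and 9.89, 9.82 and 9.89 with Activin A, a clear separation (-0.49 ± 0.10, limma adjusted p = 0.00486). TPI1, which interconverts the triose phosphates, gave 12.06, 12.07 and 11.94 with Activin A + BMP4 and 11.84, 11.34 and 11.93 with Activin A. It was not past the threshold (0.32 ± 0.16, limma adjusted p = 0.152), and Activin A replicate 2 stood below the other 5 arrays. Without it the difference was 0.14.

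The lower part of glycolysis, from triose phosphate to pyruvate and lactate, held the rises among the enzymes. GAPDH, the dehydrogenase often used as a reference gene in expression work, had 2 tested probes. The brighter gave 12.60, 12.66 and 12.54 with Activin A + BMP4 and 13.24, 13.17 and 13.02 with Activin A, 1.46-fold lower with BMP4 (-0.54 ± 0.10, limma adjusted p = 0.00449). The dimmer gave 9.40, 9.08 and 9.83 with Activin A + BMP4 and 9.62, 9.46 and 9.22 with Activin A, so that its arrays overlapped (0.01 ± 0.19, limma adjusted p = 0.983). Both probes are annotated to the same transcript, so the fall of GAPDH rests on its brighter probe. PGK1 and PGAM1, which carry out the following kinase and mutase steps, differed by -0.18 ± 0.10 and -0.09 ± 0.10. Their arrays did not overlap, but neither passed the threshold (limma adjusted p = 0.202 and 0.507).

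ENO1, the general enolase, gave 14.02, 13.98 and 13.96 with Activin A + BMP4 and 13.62, 13.41 and 13.59 with Activin A. Every BMP4-treated array was above every other, and ENO1 was 1.36-fold higher (0.44 ± 0.10, limma adjusted p = 0.0105). The call depended on the scaling between arrays: with median scaling the difference was 0.36 (adjusted p = 0.0830) and with the authors' values 0.35 (adjusted p = 0.0765). The neuronal enolase ENO2 differed by 0.25 ± 0.11 without passing (limma adjusted p = 0.128).

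PKM, which encodes the pyruvate kinase isoforms M1 and M2 through alternative splicing, was higher by all 3 of its probes, which are annotated to 3 different transcripts. The brightest gave 10.21, 10.38 and 10.46 with Activin A + BMP4 and 9.79, 9.75 and 9.68 with Activin A, a 1.53-fold rise (0.61 ± 0.11, limma adjusted p = 0.00272). The other probes rose 2.06-fold (1.04 ± 0.15, limma adjusted p = 0.00103) and 2.03-fold (1.02 ± 0.14, limma adjusted p = 7.50e-04). On none of the 3 did the treatments overlap, and the annotation does not tell which splice form each probe reports. The lactate dehydrogenase genes, whose products interconvert pyruvate and lactate, did not pass the threshold. LDHA gave 11.73, 11.44 and 11.75 with Activin A + BMP4 and 11.81, 11.73 and 11.43 with Activin A (-0.01 ± 0.14, 95% confidence interval -0.33 to 0.31). LDHB differed by 0.10 ± 0.21, or by -0.14 without Activin A + BMP4 replicate 3, its highest array.

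Over the 17 enzymes, 2 were higher (11.8%, against 17.6% of all tested genes) and 6 lower (35.3%, against 18.1%), and 9 did not pass. The median difference was -0.066, and it ranged from -0.128 without Activin A replicate 3 to -0.018 without Activin A + BMP4 replicate 2. The fibroblast markers were lower on the same arrays, with a median of -1.84, and their part in the falls of HK1, GPI, PFKP, ALDOA, ALDOC and GAPDH was not tested.

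**Figure D2:**
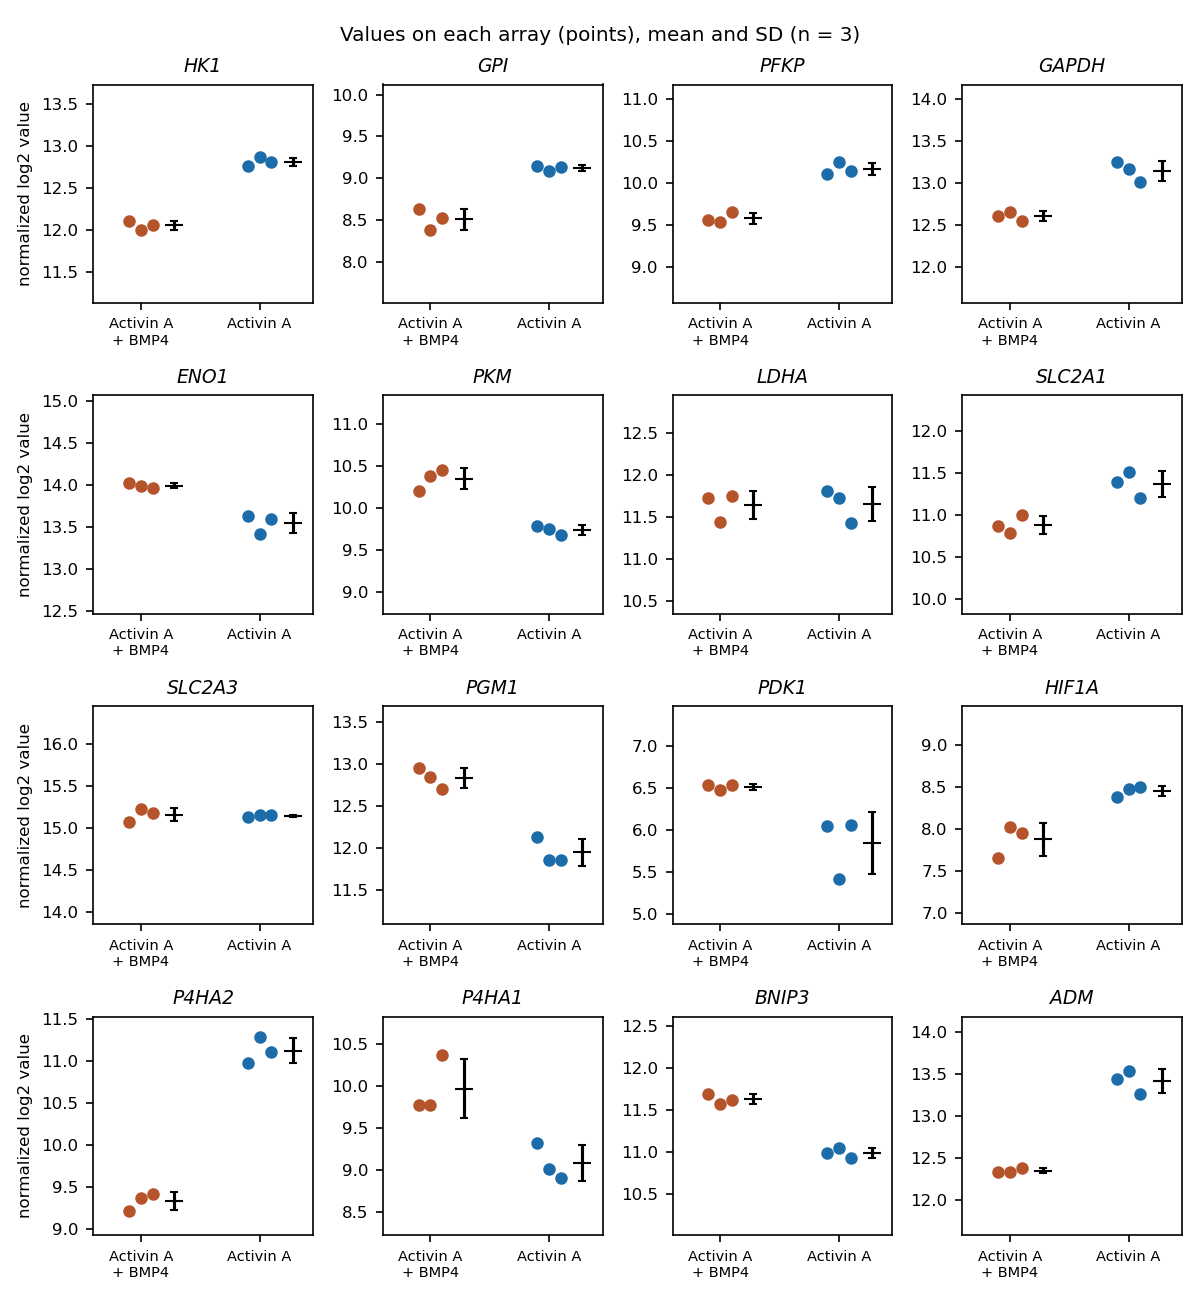
Normalized log2 values of 16 genes are plotted for each array (points), with the mean and SD (n = 3) beside them, Activin A + BMP4 on the left and Activin A on the right of each panel; all panels span the same log2 range. HK1, GPI, PFKP, GAPDH, SLC2A1, HIF1A, P4HA2 and ADM are lower with BMP4, ENO1, PKM, PGM1, PDK1, P4HA1 and BNIP3 are higher, and LDHA and SLC2A3 overlap.

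Of the transporters, SLC2A1 and SLC2A3 could be tested. SLC2A1 (GLUT1), the basal glucose carrier of many cells and a HIF target, gave 10.86, 10.78 and 10.99 with Activin A + BMP4 and 11.38, 11.51 and 11.20 with Activin A. The arrays did not overlap, and SLC2A1 was 1.40-fold lower with BMP4 (-0.49 ± 0.12, limma adjusted p = 0.0131). Without Activin A + BMP4 replicate 2 it missed the threshold (adjusted p = 0.0512). SLC2A3 (GLUT3), a high-affinity carrier of neurons and pluripotent cells, gave 15.08, 15.23 and 15.18 with Activin A + BMP4 and 15.14, 15.16 and 15.16 with Activin A. These arrays overlapped (0.01 ± 0.10, limma adjusted p = 0.942, 95% confidence interval -0.21 to 0.23). The SLC2A3 probe had a deposited signal of 33223.3 to 37506.3, rank 12 to 17 among the 24526 probes, and whether the signal is compressed at this end of the scale was not tested. SLC2A14 is a near-identical copy, so the probes of both genes may share RNA.

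Among the regulators of glycolytic flux, 2 of 4 tested genes rose and 0 fell, where 17.6% of all tested genes were higher and 18.1% lower. PGM1, the phosphoglucomutase that links glycogen and galactose use to glycolysis, gave 12.95, 12.85 and 12.70 with Activin A + BMP4 and 12.13, 11.85 and 11.85 with Activin A. The lowest BMP4-treated array was above the highest other by more than the spread within either treatment, and PGM1 was 1.85-fold higher (0.89 ± 0.12, limma adjusted p = 7.65e-04). PDK1, a kinase that switches off pyruvate dehydrogenase, gave 6.54, 6.47 and 6.53 with Activin A + BMP4 and 6.05, 5.41 and 6.06 with Activin A. PDK1 was dim, detected on 3 Activin A + BMP4 arrays and 1 Activin A array, and was 1.60-fold higher (0.68 ± 0.17, limma adjusted p = 0.0171). With Activin A mostly at background the size is uncertain: it was 0.45 with normexp correction and 0.91 with the authors' values, past the threshold in each. PFKFB3 and PFKFB4 make and remove a regulatory fructose bisphosphate that stimulates phosphofructokinase, not the one that aldolases cleave. The PFKFB3 and PFKFB4 transcripts differed by -0.15 ± 0.11 and 0.17 ± 0.10 and did not pass (limma adjusted p = 0.331 and 0.246). PDK3 was detected on 1 Activin A + BMP4 array alone and was not tested.

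By the probe that stands for the gene, the HIF pathway and its targets held both ends of the set. HIF1A was lower by both probes. The brighter gave 7.66, 8.03 and 7.95 with Activin A + BMP4 and 8.38, 8.48 and 8.50 with Activin A, 1.49-fold lower with BMP4 (-0.57 ± 0.12, limma adjusted p = 0.00754). The dimmer fell by 0.46 on the log2 scale (SE 0.12, limma adjusted p = 0.0219). That call was lost without any 1 of the Activin A + BMP4 replicates (adjusted p = 0.0501, 0.0637 and 0.0506 without replicates 1, 2 and 3) and without Activin A replicate 3 (0.0578). HIF1A is regulated largely at the protein level, which the arrays do not measure. EGLN1 and EGLN3, prolyl hydroxylases that mark HIF for degradation, were not tested. EGLN1 was detected on 0 arrays and EGLN3 on 1 Activin A + BMP4 array.

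The collagen prolyl hydroxylase subunits P4HA1 and P4HA2, both known HIF targets, moved in opposite directions. P4HA2 gave 9.22, 9.37 and 9.42 with Activin A + BMP4 and 10.98, 11.28 and 11.11 with Activin A. The treatments were separated by several times their spread, and P4HA2 was 3.46-fold lower (-1.79 ± 0.12, limma adjusted p = 1.80e-05). Its dimmer probe, detected on 1 Activin A + BMP4 array and 3 Activin A arrays, also fell (-0.78 ± 0.18, limma adjusted p = 0.0117). P4HA1 gave 9.77, 9.77 and 10.37 with Activin A + BMP4 and 9.33, 9.02 and 8.91 with Activin A, 1.85-fold higher with BMP4 (0.89 ± 0.19, limma adjusted p = 0.00696). Replicate 3, alone on its chip, was the highest BMP4-treated array, and without it the difference was 0.69 (adjusted p = 0.0121). The other P4HA1 probe, annotated to a different transcript, averaged 8.31 ± 0.52 with Activin A + BMP4 and 8.21 ± 0.24 with Activin A (SD, n = 3 each). It did not pass (0.09 ± 0.25, limma adjusted p = 0.798). Without Activin A + BMP4 replicate 3 its difference was -0.21 (adjusted p = 0.357), so the rise of P4HA1 rests on 1 of its probes.

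ADM, which encodes the vasodilator peptide adrenomedullin, gave 12.34, 12.33 and 12.38 with Activin A + BMP4 and 13.45, 13.54 and 13.26 with Activin A. The BMP4-treated arrays lay close together and far below the others, and ADM was 2.09-fold lower (-1.06 ± 0.11, limma adjusted p = 1.47e-04). VEGFA, the main angiogenic growth factor among HIF targets, gave 7.82, 7.67 and 7.87 with Activin A + BMP4 and 8.35, 8.17 and 8.27 with Activin A. It was 1.39-fold lower without overlap (-0.48 ± 0.11, limma adjusted p = 0.00909) by 1 of 3 probes. Of its other probes, 1 was detected on 2 Activin A arrays and the other on none.

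BNIP3, a mitophagy receptor induced by HIF, moved the other way. It gave 11.69, 11.57 and 11.63 with Activin A + BMP4 and 10.99, 11.06 and 10.94 with Activin A, and was 1.56-fold higher (0.64 ± 0.10, limma adjusted p = 0.00134), with a narrow spread in both treatments. Its relative BNIP3L was detected on 0 arrays. NDRG1, a stress-responsive gene, gave 6.26, 6.43 and 6.08 with Activin A + BMP4 and 6.96, 6.96 and 6.35 with Activin A. These arrays overlapped, and the difference of -0.50 ± 0.18 missed the threshold (limma adjusted p = 0.0642). It passed without Activin A replicate 3 (adjusted p = 0.00816) and among probes detected on all 6 arrays (0.0474). ANKRD37, an ankyrin repeat gene and HIF target, was dim and overlapped (-0.42 ± 0.24, limma adjusted p = 0.219).

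Of the 8 tested genes of the HIF pathway and targets, 2 were higher and 4 lower, 2 did not pass, and the median difference was -0.49 (17.6% and 18.1% of all tested genes were higher and lower). The summed level of the fibroblast markers was 18345.5 to 19225.5 with Activin A + BMP4 and 56209.8 to 70782.0 with Activin A. Its part in the falls of P4HA2, ADM, VEGFA and HIF1A was not tested.

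Probes of the same gene gave no opposed calls. Of 6 genes with more than 1 tested probe, ALDOA, PKM, P4HA2 and HIF1A had the same call for every tested probe, while GAPDH and P4HA1 had 1 probe past the threshold and 1 not. Over all tested genes, 678 of 924 with several tested probes (73.4%) had the same call for all, and for 4 the probes were called in opposite directions.

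The ratio of related genes within each array shows whether they changed unequally. Of 13 pairs listed, 9 had both genes tested. With 3 arrays against 3 the exact permutation test (two-sided) cannot give a p below 0.1, which is 0.15 after adjustment over the 9 pairs, so no pair could pass. The ratio of P4HA2 to P4HA1 on the log2 scale was -0.56, -0.40 and -0.96 with Activin A + BMP4 and 1.65, 2.27 and 2.21 with Activin A. The shift of -2.68 ± 0.26 is a 6.42-fold change of the ratio (exact permutation p = 0.1). It rests on the probe of P4HA1 that rose.

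The ratio of PFKP to PFKL was 1.08, 0.61 and 1.19 with Activin A + BMP4 and 2.04, 1.95 and 1.94 with Activin A. The platelet-type subunit transcript was thus 2.02-fold lower relative to the liver-type (shift -1.01 ± 0.18, exact permutation p = 0.1), without overlap. Smaller shifts without overlap were those of SLC2A3 over SLC2A1 (0.50 ± 0.12), PFKFB4 over PFKFB3 (0.32 ± 0.08) and PFKM over PFKL (-0.37 ± 0.16), each with an exact permutation p of 0.1. HK2 over HK1 did not overlap either, but HK2 was near background, and the shift ranged from 0.43 to 0.97 with 1 array left out. The aldolase, enolase and lactate dehydrogenase pairs overlapped, with shifts of -0.12 ± 0.07, -0.20 ± 0.12 and 0.11 ± 0.29 (exact permutation p = 0.3, 0.3 and 0.7).

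**Figure D3:**
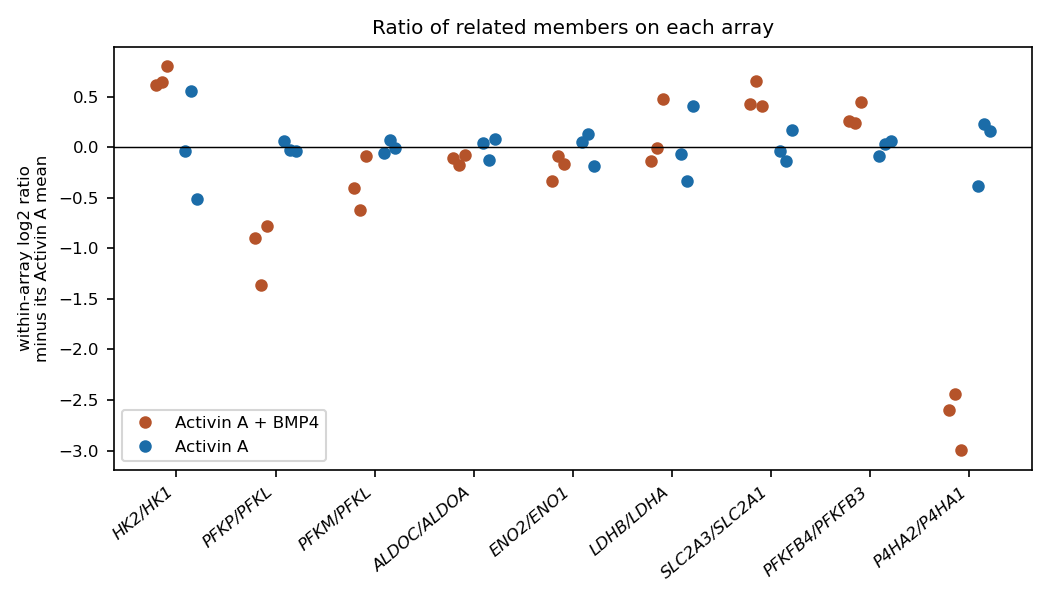
The log2 ratio of 2 related genes within each array, less its mean over the Activin A arrays, is plotted for 9 pairs, with Activin A + BMP4 arrays to the left of Activin A arrays in each pair. The ratio P4HA2/P4HA1 shifted by -2.68 and PFKP/PFKL by -1.01. Of 9 pairs, 6 had no overlap between treatments, while 50.2% of all tested genes, taken singly, had none. The share over other gene pairs was not computed.

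HIF binds a short core in hypoxia response elements, ACGTG or GCGTG, and both strands were searched in the 250 bases before each RefSeq transcription start (GRCh38.p14). Windows were found for 33 of the 38 genes. At least 1 window held a core for 27 of 33 genes, or 81.8%, against 47.4% of 27305 genes in the table. A gene with more windows has more chances to hold a core, and members had 62 windows for 33 genes, against 35116 for 27305. By window the shares were 35 of 62, or 56.5%, and 43.2% of 35116. The comparison was not limited to tested genes. By direction, the core was found for 5 of 6 tested genes that were higher, 8 of 10 that were lower and 10 of 12 that did not pass. Since most members held a core and these groups are small, the shares cannot show whether the core goes with direction. A match shows only that the letters are there.

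The windows of 3 genes are shown because they had the largest differences among those past the threshold with a core in the window, and that of P4HA2, added after its values were seen, because it is set against P4HA1 above. Each runs 5′ to 3′ on the gene's own strand up to the base before the start, with cores in capitals. ADM has 1 core, 101 bases upstream of the start, at chr11:10304823-10305072 on the plus strand. P4HA1 has 1, 86 bases upstream, at chr10:73096867-73097116 on the minus strand. PGM1 has 3 windows, of which the one with the most cores is shown, at chr1:63593559-63593808 on the plus strand, with cores 156, 35 and 26 bases upstream. That start lies 398 bases downstream of another annotated start of PGM1, so the window is within the gene. P4HA2 has 0 cores at chr5:132227092-132227341 on the minus strand.
ADM: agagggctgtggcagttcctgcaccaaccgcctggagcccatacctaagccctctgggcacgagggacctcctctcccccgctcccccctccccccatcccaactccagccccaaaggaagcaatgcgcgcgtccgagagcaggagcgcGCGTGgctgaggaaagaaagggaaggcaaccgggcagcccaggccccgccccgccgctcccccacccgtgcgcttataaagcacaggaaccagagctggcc
P4HA1: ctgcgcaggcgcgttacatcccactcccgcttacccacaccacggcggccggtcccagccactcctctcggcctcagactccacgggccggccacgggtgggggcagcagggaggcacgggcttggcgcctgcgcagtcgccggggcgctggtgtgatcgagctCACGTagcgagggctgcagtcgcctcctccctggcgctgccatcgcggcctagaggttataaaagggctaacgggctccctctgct
PGM1: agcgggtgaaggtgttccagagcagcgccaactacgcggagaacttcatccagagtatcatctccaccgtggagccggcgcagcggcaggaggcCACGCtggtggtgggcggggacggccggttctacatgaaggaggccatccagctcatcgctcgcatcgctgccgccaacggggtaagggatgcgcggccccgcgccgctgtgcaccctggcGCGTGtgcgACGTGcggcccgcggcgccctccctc
P4HA2: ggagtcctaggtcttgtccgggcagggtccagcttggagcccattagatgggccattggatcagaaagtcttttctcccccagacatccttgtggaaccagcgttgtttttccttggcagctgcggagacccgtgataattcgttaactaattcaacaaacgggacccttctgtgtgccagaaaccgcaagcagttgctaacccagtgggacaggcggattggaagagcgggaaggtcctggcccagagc
ADM was 2.09-fold lower with BMP4 while P4HA1 and PGM1 were each 1.85-fold higher. These 3 were chosen for a large difference and a core, so they do not speak for other genes with a core.

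Other genes of the same pathways, 76 of which were tested, gave 16 higher (21.1%, against 17.6% of all tested genes) and 26 lower (34.2%, against 18.1%). The share of rises was thus near that of all genes. Of 7 further glycolysis genes, 2 were higher and 1 lower (median 0.14). ADPGK, an ADP-dependent glucokinase, was higher by 0.59 ± 0.13 (limma adjusted p = 0.00717) and GALM, which interconverts the anomers of galactose and glucose, by 0.60 ± 0.13 (limma adjusted p = 0.00888). BPGM, which makes bisphosphoglycerate, was lower (-0.72 ± 0.22, limma adjusted p = 0.0332), but it was detected on 1 Activin A + BMP4 array, so the size is uncertain. Its call was lost under 7 alternatives (adjusted p up to 0.103).

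Genes for the entry of pyruvate into mitochondria, and for pyruvate dehydrogenase and its control, went both ways (median -0.01). Of 8 tested, 3 were higher (37.5%, against 17.6% of all tested genes) and 2 lower (25%, against 18.1%). The pyruvate dehydrogenase subunit genes PDHA1 (0.61 ± 0.19, limma adjusted p = 0.0330) and DLD (0.56 ± 0.11, limma adjusted p = 0.00583) were higher, and DLAT was lower (-0.33 ± 0.10, limma adjusted p = 0.0357). The calls of PDHA1 and DLAT were lost under several alternatives, with an adjusted p of up to 0.0960 and 0.111. PDP1, the phosphatase that reverses the action of PDK1 on pyruvate dehydrogenase, was detected on 0 Activin A + BMP4 arrays and 3 Activin A arrays. It was lower by a factor of at least 1.32, or at least 1.21 under normexp correction (limma adjusted p = 2.52e-05). Such a bound compares the Activin A mean with, on each Activin A + BMP4 array, the higher of the lowest detected value and the probe's own. PDK1 was higher and PDP1 lower on the same arrays.

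Of 6 tested genes of the pentose phosphate pathway, which branches from glucose phosphate, 3 were lower and 0 higher (median -0.23), where 18.1% of all tested genes were lower and 17.6% higher. TKT, the transketolase, was lower (-0.64 ± 0.09, limma adjusted p = 0.00111), and so was PGD, a dehydrogenase of the pathway (-0.35 ± 0.11, limma adjusted p = 0.0340, up to 0.109 under the alternatives). Of 7 tested glycogen genes, 4 were lower and 0 higher (median -0.67). PPP1R3C, which targets a phosphatase to glycogen and is a known HIF target, gave 6.64, 6.50 and 6.46 with Activin A + BMP4 and 8.61, 8.64 and 8.59 with Activin A, 4.22-fold lower (-2.08 ± 0.10, limma adjusted p = 6.45e-06). GBE1, the branching enzyme, was 1.92-fold lower (-0.94 ± 0.18, limma adjusted p = 0.00461). PGM1, which stands between glycogen and glycolysis, rose on these arrays. The part of fibroblast RNA in these falls was not tested.

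Further glucose and monocarboxylate transporter genes gave 4 higher and 3 lower of 9 tested (median 0.29). These are 44.4% and 33.3%, against 17.6% and 18.1% of all tested genes. SLC2A6 was 2.20-fold higher (1.14 ± 0.13, limma adjusted p = 2.24e-04) and SLC2A14, the copy of SLC2A3, 1.74-fold higher (0.80 ± 0.11, limma adjusted p = 5.88e-04). The glucose transporter genes SLC2A12 and SLC2A10 were lower, with differences of -0.74 ± 0.12 and -0.56 ± 0.12 (limma adjusted p = 0.00215 and 0.00789). The SLC2A3 probe, near the top of the scale, differed by 0.01 on these arrays.

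Further HIF pathway components gave 2 higher and 2 lower of 12 tested (median 0.04). Each is 16.7%, near the 17.6% and 18.1% of all tested genes. EPAS1, which encodes the HIF2 alpha subunit, gave 8.06, 8.15 and 8.03 with Activin A + BMP4 and 9.18, 9.34 and 9.47 with Activin A, 2.38-fold lower (-1.25 ± 0.11, limma adjusted p = 7.07e-05). It was lower together with HIF1A. ARNT2, a partner subunit, was detected on the Activin A arrays alone, as PDP1 was. By the same kind of bound ARNT2 was lower by a factor of at least 1.57, or at least 1.37 under normexp (limma adjusted p = 0.00197). EGLN2, a HIF prolyl hydroxylase, was higher by 0.39 ± 0.10 (limma adjusted p = 0.0145, up to 0.156 under the alternatives) and the coactivator gene CREBBP by 0.32 ± 0.10 (limma adjusted p = 0.0452, up to 0.144).

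Of 27 further HIF target genes tested, 5 were higher (18.5%, near the 17.6% of all tested genes) and 11 lower (40.7%, against 18.1%), with a median of -0.27. Of the falls, 7 were at least 2-fold, where 5.4% of all tested genes were lower at least 2-fold. BHLHE40, a basic helix-loop-helix repressor, was 2.29-fold higher (1.20 ± 0.13, limma adjusted p = 1.74e-04) and WSB1, a ubiquitin ligase subunit, 1.77-fold higher (0.82 ± 0.14, limma adjusted p = 0.00270). LOX, lysyl oxidase, was 4.58-fold lower (-2.20 ± 0.11, limma adjusted p = 6.45e-06) and is also one of the fibroblast markers counted above. AK4, a mitochondrial adenylate kinase, was 2.81-fold lower (-1.49 ± 0.12, limma adjusted p = 3.78e-05). As in the set itself, falls outnumbered rises and both occurred. The fibroblast markers were lower on the same arrays, 12 of 13 of them past the threshold, and their part in the falls was not tested.

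**Figure D4:**
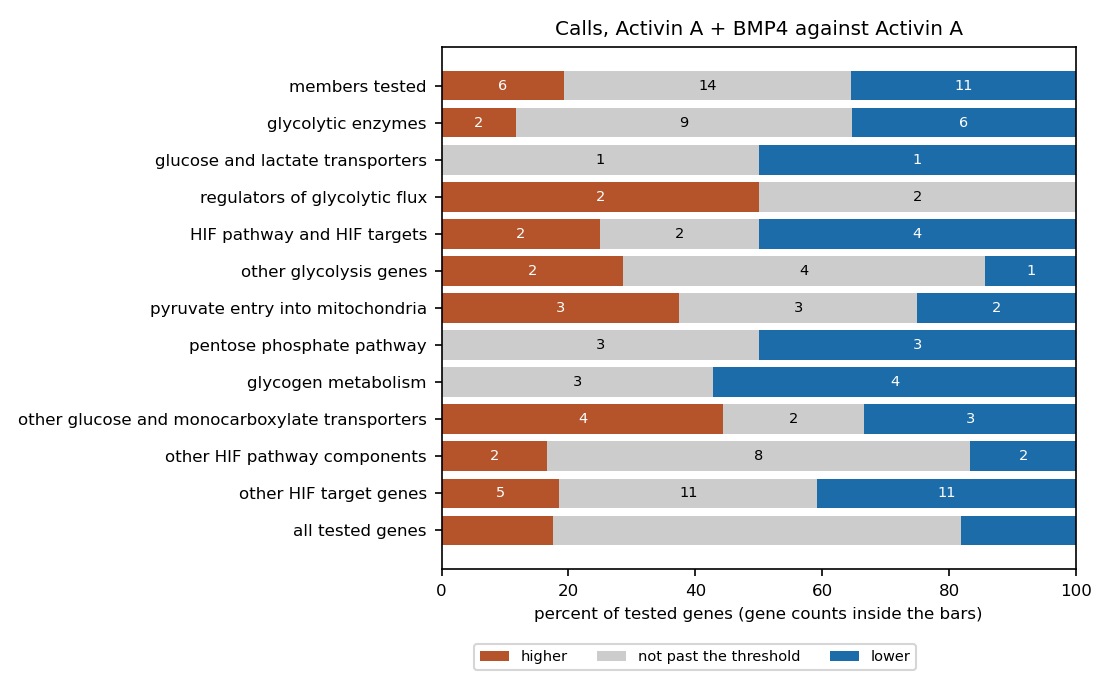
Bars give the percent of tested genes called higher, not past the threshold or lower with Activin A + BMP4 against Activin A, for the gene set and its roles, for 7 lists of other pathway genes and for all tested genes, with gene counts inside the bars. The pentose phosphate and glycogen lists hold 0 higher genes, the regulators of flux hold 0 lower ones, and 17.6% and 18.1% of all tested genes were higher and lower.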

How the data were processed

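RNA of 6 cultures was measured on Illumina bead arrays, 3 for each treatment. The authors deposited a linear intensity for each probe, which the file headers call not normalized. On each array 22.2% to 24.6% of these were negative, so background had been subtracted. The deposited detection column, named a p-value in the file headers, is a score that rose with the signal (Spearman correlation at least 0.98 on each array) and was read as 1 minus the p-value. The authors' processed table holds log2 values centred on a baseline that stays unknown, and over 6507 bright probes they followed the log2 signal to within 1.20e-06 once a constant per probe and per array was allowed. They served as an alternative only, with each gene kept at the same probe.

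Background correction and quantile normalization used the neqc function of limma 3.58.1 in R 4.3.3 (offset 16, negative controls inferred from detection p). Probes with detection p under 0.01 on at least 3 of 6 arrays were tested with lmFit and eBayes, two-sided, with treatment as the only term and adjustment over 10116 probes at 0.05. A gene was represented by its tested probe with the highest mean. The platform annotation gave 1 symbol for 21834 probes and none for 2692, and the gene IDs of 21813 probes were found in a RefSeq table, which gave current symbols. Ratios within arrays were compared with exact permutation tests in scipy 1.17.1. Promoters are RefSeq's (GRCh38.p14).

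The gene set, the other lists and the markers were chosen with earlier results of these data known. All set members are named, and in each other list up to 2 genes with the largest rise and 2 with the largest fall among those past the threshold without overlap between treatments. The fit was tested on simulated data. Deviations of same-numbered arrays from their treatment means were nearly uncorrelated (0.03, -0.03 and -0.05), so the main fit did not pair arrays by replicate number. These values cannot show whether same-numbered cultures were grown in parallel. Alternatives changed the background correction, normalization, detection filter, probe per gene, replicate or chip as a block, and left out each array. Precision is limited by 3 arrays per treatment.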

Additional observations from a re-analysis of the deposited data

How the results depend on the processing

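Over 604 comparisons of a member probe with an alternative, the 350 of probes past the threshold kept their direction in all, while those of probes not past it changed sign in 16. Direction could not change under the alternatives that only changed the detection filter or added the replicate block, since these leave each difference as it was. In all, 10 comparisons lost the call (in 4 probes, of ALDOA, ENO1, SLC2A1 and HIF1A) and 6 others gained one (in 2 probes, of PFKL and NDRG1). The median difference over the 31 genes was -0.198 with median scaling, -0.203 with the authors' values and -0.184 to -0.055 with 1 array left out. Under each of these scalings 1 enzyme was called higher, since ENO1 did not pass. Transporters called lower numbered 0 to 1 with 1 array left out, and their median was -0.16 with cyclic loess. Regulators called higher numbered 1 among probes detected on all 6 arrays, where PDK1 is not tested, and their median was 0.30 with normexp, 0.53 with no background correction, 0.27 with no filter and 0.17 with detection on all 6 arrays. HIF genes called higher numbered 1 with the mean of a gene's probes, and their median was -0.39 with normexp, -0.60 with no background correction and -0.58 with the authors' values. The shift of SLC2A3 over SLC2A1 was 0.68 with cyclic loess. Except where the construction shows it, the cause was not tested. The correlations given above showed no pairing by replicate number. With the replicate block, 7 members were higher and 12 lower, and 1369 and 1358 of all tested genes. With chip as a random block 6 and 11 members were called. Each chip held 1 treatment, so this block cannot remove a difference between the chips of the treatments. The median over all tested genes stayed between -0.03 and 0.01 in every setting. Signal over background limits HK2, PDK1, NDRG1, ANKRD37 and the genes not tested.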
